A study of Caenorhabditis elegans with 4 samples.

Results

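In L3 larvae of Caenorhabditis elegans, the strongest MML-1 ChIP peaks were grouped into multi-peak clusters, which held 524 of the 1999 leading peaks of the 2 replicates. A cluster was a locus with at least 3 such peaks and at least 1 from each replicate. Peaks numbered 1000 or lower were pooled from both replicate lists, 1 repeated interval was dropped, and peaks on the same chromosome separated by 10 kb or less were merged into loci. This gave 1309 loci, of which 107 were clusters and 1202 are called the other loci below. Replicate 1 gave 283 of the member peaks and replicate 2 gave 241. The peak number is the running number in the authors' name for a peak. It follows the deposited score closely, so that low numbers are strong peaks, and each list held 30000 peaks. The highest score was shared by 263 peaks of replicate 1 and by 429 of replicate 2. Strong and weak below therefore refer to the peak number.

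All 4 samples were hermaphrodites of the strain OP198 at the L3 stage, grown at 20 °C. Its genotype is unc-119(ed3) with the integrated transgene wgIs198, in which mml-1 carries the TY1, EGFP and FLAG tags at its C terminus beside an unc-119 marker. The transgene was introduced by bombardment, and no mutation of the endogenous mml-1 gene is listed. ChIP replicates 1 and 2 were precipitated with antibodies to GFP, and input replicates 1 and 2 were the matching input samples, of which no values were used. Each extract came from whole worms, and there was no strain without the tag. Whether replicates 1 and 2 were grown apart is not stated, so differences between them may be technical.

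MML-1 is the worm member of the Myc and Mondo family of basic helix-loop-helix leucine zipper transcription factors. It pairs with MXL-2, and such dimers bind E-box sequences in the promoters of their target genes. In worms the pair is known for a role in lifespan and in cell migration, and the Mondo proteins of mammals for their response to glucose. A factor can occupy several sites close together around 1 gene or a group of genes, and clusters of peaks in ChIP data can be one form this takes. Whether this holds for the clusters described here was not tested. Gene names are not given for the clusters, since no annotation of the build of the peak lists (WormBase WS220) was used here, and no DNA sequence of these regions is shown.

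The clusters were chosen by peak numbers and positions in these same replicates, so their peak counts, lengths and leading peaks are given as descriptions, without tests. The combined list of 396 peaks comes from the same experiments and is not independent of them either. Each interval given with a share is an exact 95% interval by the Clopper-Pearson method. It covers counting error alone and treats peaks or loci as independent, although peaks of 1 cluster are neighbours. Sequencing depth is unknown, because the lists hold no read counts.

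Most clusters were small. There were 38 clusters of 3 peaks, 31 of 4 peaks and 38 of 5 or more peaks, with a median of 4 and a highest count of 26. Among the other loci 947 held a single peak, 239 held 2 peaks and 16 held 3 or 4 peaks, all from 1 replicate. The 107 clusters made up 8.17% of the loci and spanned 1041 kb in all, or 1.04% of the genome span. The 10 clusters with the most peaks held 120 member peaks, which was 22.9% of the 524. Clusters of 9 peaks tied for the last places and were ordered by their number of combined peaks, which left out one on V at 14829799 to 14847736 with 1 combined peak and leading numbers 187 and 60.

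A peak from each replicate at the same place counts 2 times in such totals, so peaks that shared at least 1 bp were also merged into sites. The 524 member peaks formed 378 sites, with a median of 3 sites per cluster and a range of 1 to 18. In 73 clusters there were 3 or more sites, in 31 there were 2, and in 3 all peaks fell into 1 site. Both replicates had a peak at 105 of the 378 sites (27.8%, interval 23.3 to 32.6%). At such a shared site the midpoints of the replicates' leading peaks lay a median of 28 bp apart, with quartiles of 12 and 129 bp. The 39 shared sites of the other loci had a median of 39 bp. Most sites of the clusters were thus marked among the first 1000 by a single replicate.

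**Figure D1:**
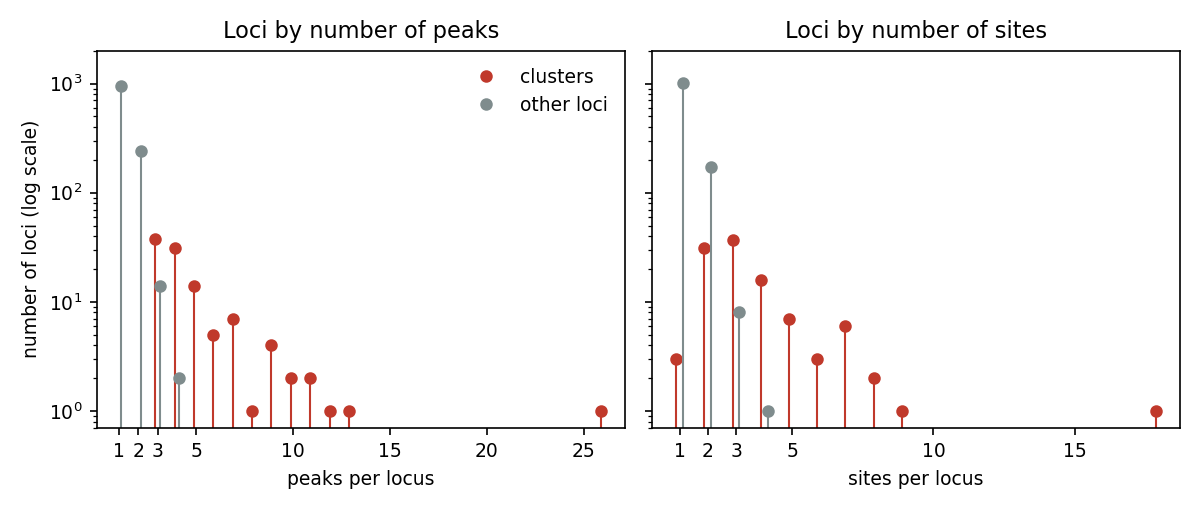
Number of loci (log scale) by the number of peaks per locus and by the number of sites per locus, for clusters and other loci. Clusters start at 3 peaks by their definition and run to 26, while overlapping peaks merged into sites leave 3 clusters with a single site and 31 with 2.

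Clusters ranged in length from 798 to 36510 bp, with a median of 8744 bp and quartiles of 6028 and 13398 bp. The other loci had a median of 520 bp, which is the width of a single replicate 2 peak, and reached 16156 bp. Within clusters the gap between neighbouring sites had a median of 2010 bp over 271 gaps. Within the other loci it was 4364 bp over 190 gaps. Gaps under 500 bp made up 18.8% of those in clusters and 4.21% of those in the other loci. Gaps of 5000 to 10000 bp made up 27.3% of those in clusters and 44.2% of those in the other loci. Spacing comes from the same positions that the rule used, and it is given as a description.

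The cluster with the most peaks lay on X at 6728984 to 6751819. Its 22836 bp held 26 peaks in 18 sites, 12 peaks from replicate 1 and 14 from replicate 2, and 8 sites were shared. The leading peaks were number 2 of replicate 1 and number 3 of replicate 2, in the same site at 6741934 to 6742393. Just beside it, the site at 6742701 to 6743220 held numbers 38 and 23 of replicates 1 and 2. Towards the right edge, the site at 6750084 to 6750456 held numbers 12 and 9. The left part had higher peak numbers and was mostly marked by 1 replicate: the first 5 sites held only peaks numbered from 140 to 923. This cluster therefore had several strong sites rather than a single summit. It overlapped 5 combined peaks, the best with q = 4.654e-94, but of its 8 shared sites only 4 overlapped one. Shared sites without a combined peak included the leading one and that at 6737555 to 6737997, with peak numbers 13 and 22.

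Chromosome V held the cluster with the next most peaks, at 10714861 to 10724136. It had 13 peaks in 8 sites over 9276 bp, with 7 from replicate 1 and 6 from replicate 2. Its leading peaks were number 61 of replicate 1 and number 40 of replicate 2, and they lay in different sites. It overlapped 4 combined peaks, the best with q = 2.785e-15. Its many peaks thus went with more modest leading numbers than those of the X cluster.

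Near the right end of X, the cluster at 17626161 to 17641067 had 12 peaks, 6 from each replicate, in 7 sites. Peaks number 11 and 20 of replicates 1 and 2 marked its outermost site, and the best of its 6 combined peaks had q = 2.731e-42. A further X cluster at 13350787 to 13360295 held 10 peaks in 6 sites, 7 from replicate 1 and 3 from replicate 2. All 6 of its sites overlapped a combined peak, and with 8 combined peaks it held more than any other cluster. On X at 4132321 to 4147958, 9 peaks formed 7 sites with leading numbers 121 and 147. It was the only one of these 10 clusters that had no peak numbered 100 or lower.

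The chromosome I cluster at 7654853 to 7670352 contained 11 peaks in 8 sites. Its leading site carried numbers 7 and 4 of replicates 1 and 2 and a combined peak with q = 2.432e-71. Chromosome III had a cluster of the same count at 6887522 to 6908668, spread over 21147 bp. There a single site was shared, with numbers 9 and 10, and the other 8 sites each came from 1 replicate. The remaining chromosome III cluster of the leading 10, at 7370713 to 7383388, stood apart in having no combined peak although it held 10 peaks in 7 sites. Its leading peaks were number 144 of replicate 1 and number 48 of replicate 2, in different sites.

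On chromosome IV the cluster at 11952461 to 11962352 had 9 peaks, 3 from replicate 1 and 6 from replicate 2. Its last site held numbers 4 and 7, and the best of its 5 combined peaks had q = 4.222e-81. The cluster with the strongest leading peaks on this chromosome was at 6878938 to 6887672, where number 3 of replicate 1 and number 2 of replicate 2 fell in 1 site (best q = 2.685e-85). Of its 4 sites, 3 were shared. On chromosome V at 6218692 to 6247044, 9 peaks were spread over 28353 bp, with leading numbers 161 and 25 in different sites.

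Leading clusters by peak number on the remaining chromosomes were compact in sites. On chromosome II at 13461819 to 13469969, 5 peaks made 2 shared sites 6804 bp apart, with numbers 25 and 30 at one and 18 in both replicates at the other. On chromosome V at 19521842 to 19529510, 5 peaks made 3 sites, and the strongest site held numbers 5 and 6 (best q = 5.36e-64). The longest cluster, on X at 6628634 to 6665143, consisted of 7 peaks in 7 sites with no shared site and gaps of up to 9960 bp. Its leading numbers were 108 and 497, and its single combined peak had q = 0.004731. At the other end, the shortest cluster was on V at 6888369 to 6889166, where 3 overlapping peaks made 1 site with numbers 710 and 128 and no combined peak.

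**Figure D2:**
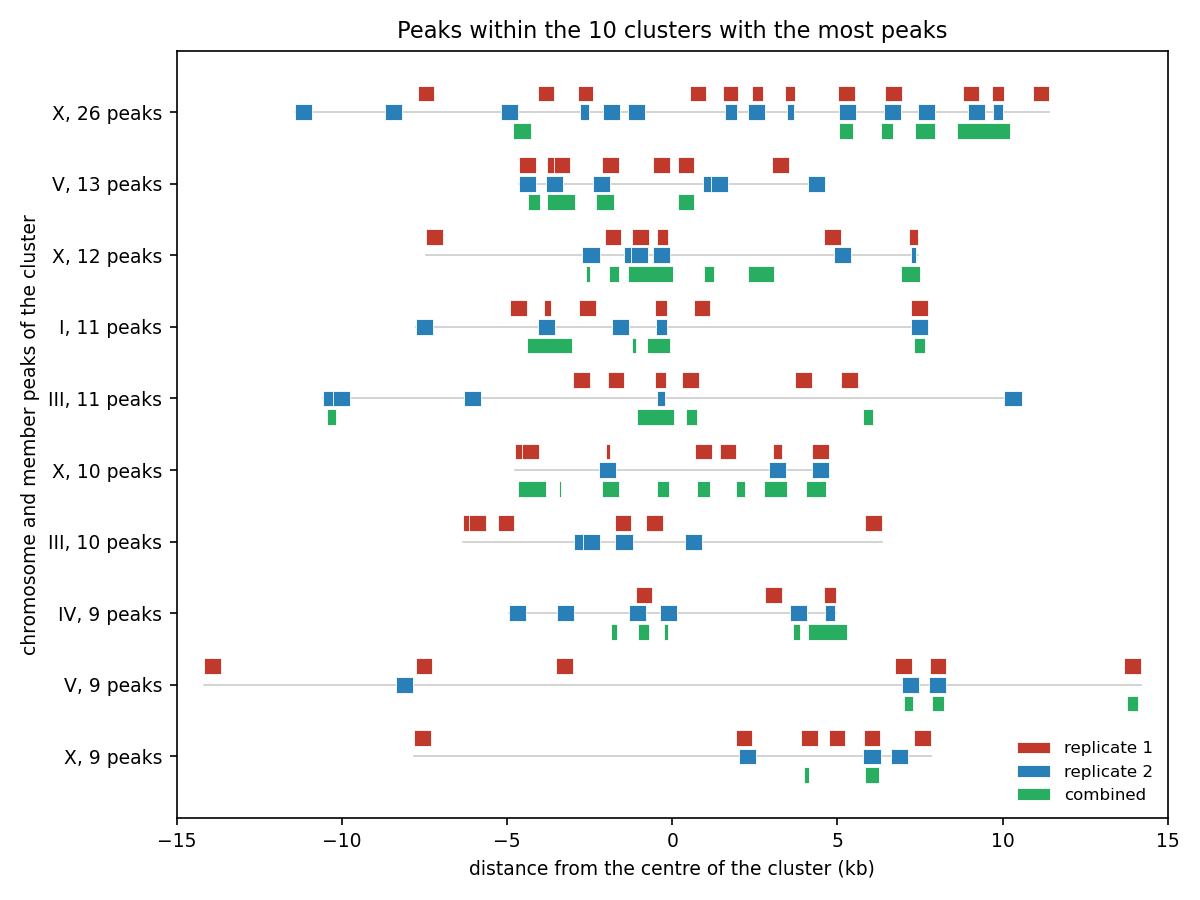
Positions of replicate 1, replicate 2 and combined peaks within the 10 clusters with the most peaks, as distance in kb from the centre of each cluster; bars are drawn to the width of the peaks and grey lines span the cluster. Shared sites appear as red and blue bars at the same distance, 8 of them in the X cluster of 26 peaks, and the chromosome III cluster of 10 peaks has no combined peak.

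The strongest peaks were largely in clusters. Of the first 100 peaks of each list, 70 of replicate 1 and 69 of replicate 2 were members. Among peaks 101 to 300 the shares were 37.7% in replicate 1 and 27% in replicate 2, and among peaks 301 to 1000 they were 19.7% and 16.9%. In clusters the median peak number was 285 in replicate 1 and 282 in replicate 2, against 570.5 and 553 in the other loci. Strong peaks outside clusters existed all the same. The peak numbered 1 in both replicates lay alone on IV at 13395235 to 13395612, with no other peak of the first 1000 within 10 kb. On X, sites at 5165028 to 5165265 (numbers 14 and 8) and at 7446515 to 7446730 (numbers 28 and 14) were likewise single.

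Clusters differed widely in how strong their leading peak was. The lowest peak number in a cluster ranged from 2 to 536 with a median of 84, against a median of 536 in the other loci. A lowest number taken over more peaks is lower by construction, and the rule keeps loci with more peaks. A peak numbered 100 or lower was present in 60 clusters (56.1%), and 31 had one from each replicate. In 18 clusters neither replicate had a peak numbered 300 or lower. Of the 60, 38 had a peak numbered 100 or lower at a single site and 22 at 2 or more sites. In most of them the neighbouring sites thus had higher numbers, though not necessarily lower scores. The median number of all member peaks was 196 in replicate 1 and 161 in replicate 2 for clusters of 5 or more peaks. It was 378.5 and 431.5 for clusters of 3 peaks.

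Both replicates had their leading peak in the same site in 50 of 107 clusters (46.7%, interval 37.0 to 56.6%). This held for 38 of the 60 clusters with a peak numbered 100 or lower (63.3%) and for 12 of the other 47 (25.5%). Across the 107 clusters the lowest numbers of the replicates followed each other with a Spearman rho of 0.62, where each cluster gives 1 point and the clusters share the same 2 libraries. Over the 126 other loci with exactly 1 peak of each replicate, rho was 0.39. A lowest number in a cluster is often taken over several peaks, so these values of rho are not directly comparable. For the peak counts of the replicates across the 107 clusters, rho was 0.139. The rule itself bears on this value, since a cluster of 3 peaks can only hold 1 from one replicate and 2 from the other. It is therefore no measure of how well the replicates match in peak counts. More peaks came from replicate 1 in 57 clusters and from replicate 2 in 33. A single replicate 1 peak was present in 23 clusters and a single replicate 2 peak in 34, while 50 had 2 or more from both.

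**Figure D3:**
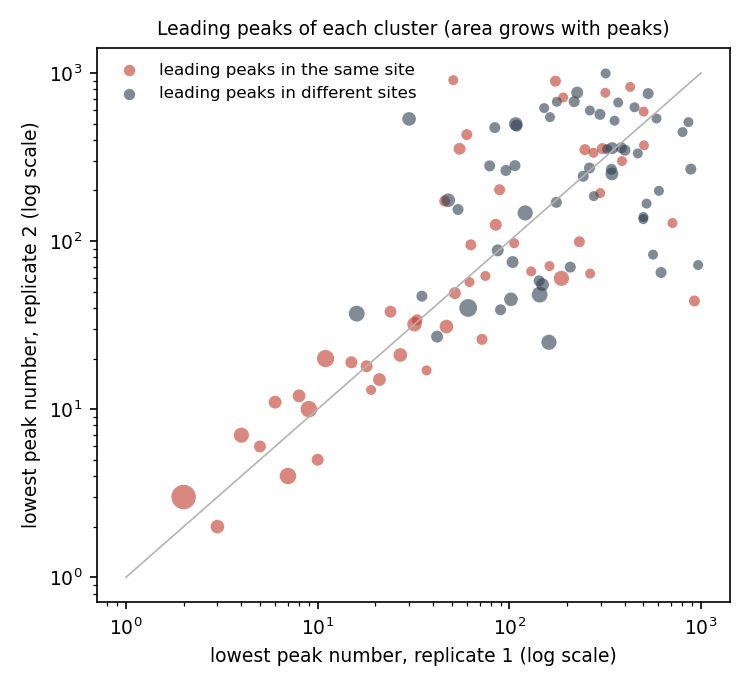
Lowest peak number of replicate 1 and of replicate 2 in each of the 107 clusters (log scales), with area growing with the number of peaks and colour showing whether both leading peaks fell in the same site. Both leading peaks fell in the same site in 50 clusters, 38 of them with a lowest number of 100 or lower, and rho across clusters is 0.62.

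No site was shared between replicates in 38 clusters (35.5%), 46 clusters had 1 shared site, 16 had 2 and 7 had 3 or more. In the 38 clusters without a shared site, the closest peaks of the replicates were separated by a median of 3647 bp. These clusters were longer, with a median of 11988 bp, against 7669 bp for clusters with a shared site. Their leading peaks had higher numbers: the median lowest number was 234.5, against 55 in clusters with a shared site. They also held fewer peaks on average (mean 3.82 against 5.49, median 4 in both). A lowest number over fewer peaks is higher by construction.

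Combined peaks were common inside clusters. Over all loci 14.1% held a combined peak, and 69 of the 107 clusters did (64.5%, interval 54.6 to 73.5%), against 115 of the 1202 other loci (9.57%, 7.96 to 11.4%). The share was 42.1% for clusters of 3 peaks, 61.3% for 4 peaks and 89.5% for 5 or more. Among the 126 loci with 1 peak of each replicate it was 32.5%. Clusters held 147 of the 396 combined peaks (37.1%), other loci held 120 and 129 lay outside all loci. By q-value, 72 of the leading 100 combined peaks lay in clusters, as did 32 of the last 198. More than 1 combined peak was found in 39 clusters and in 4 of the other loci. Longer loci can be touched by more combined peaks, so this was also expressed per length: 1.41 combined peaks per 10 kb of cluster, 0.762 per 10 kb of the other loci and 0.0395 per 10 kb of the genome span.

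The share of sites with a combined peak differed between shared sites and sites of 1 replicate. At shared sites of clusters 84 of 105 overlapped a combined peak (80.0%), whereas at sites of 1 replicate 48 of 273 did (17.6%). In the other loci the same shares were 61.5% of 39 shared sites and 6.73% of 1353 sites of 1 replicate. By count, the sites with a combined peak were mostly shared ones in clusters and mostly those of 1 replicate in the other loci (24 shared, 91 of 1 replicate). Of the 38 clusters with no shared site, 10 held a combined peak (26.3%), while all 16 clusters with 2 shared sites and all 7 with 3 or more did. Clusters without a combined peak had a median lowest number of 265, against 54 in those with one. They also held fewer peaks, with a median of 3 against 4, and a lowest number over fewer peaks is higher by construction. The median of sites was 3 in both, with means of 3.08 and 3.78. Of the 147 combined peaks in clusters, 18 overlapped no member peak, and 17 of these overlapped a weaker peak of a replicate. That share is not given here for combined peaks outside clusters, so it cannot be called particular to clusters.

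Clusters hold stronger peaks, so the overlap with the combined list was compared within classes of peak number. Over all 1999 peaks 18.8% overlapped a combined peak. In replicate 1, peaks 301 to 1000 overlapped one in 21.0% of 138 cluster peaks (interval 14.5 to 28.8%) and in 5.69% of 562 peaks of the other loci (3.93 to 7.94%). Replicate 2 gave 22% of 118 (14.9 to 30.6%) and 2.75% of 582 (1.58 to 4.43%) for the same class. In the class 101 to 300 the shares were 41.3% in clusters and 26.6% in the other loci for replicate 1, with intervals that overlapped, and 53.7% and 14.4% for replicate 2. Among the first 100 they were 91.4% and 83.3% in replicate 1 and 76.8% and 54.8% in replicate 2, again with overlapping intervals. The intervals of clusters and other loci were thus apart in both replicates for peaks 301 to 1000, and in replicate 2 alone for peaks 101 to 300. They treat neighbouring peaks as independent, so intervals that lie apart are not a test of a difference. However, neighbouring peaks of a cluster can overlap the same combined peak, so a high-numbered peak can count through a strong neighbour. On X the combined peak at 17632281 to 17633639 was overlapped by numbers 23 and 521 of replicate 1. Because a cluster needs a peak of each replicate by its rule, and the combined list was made from the same experiments, these shares are not a test of the clusters.

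**Figure D4:**
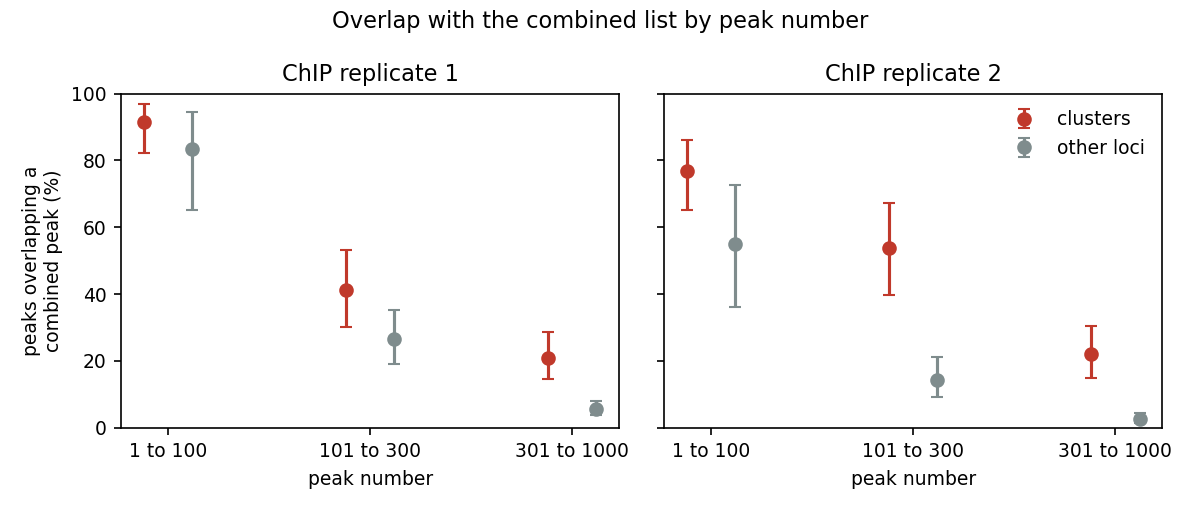
Share of peaks overlapping a combined peak (%), by class of peak number and replicate, for clusters and other loci; bars are exact 95% intervals. In the class 301 to 1000 cluster peaks stand at 21.0% and 22%, above the 5.69% and 2.75% of the other loci.

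Loci were also made from 1 replicate alone and looked up in the other. These loci are not the 107 clusters, and the rule used the first 1000 peaks of both replicates. The shares below are therefore descriptions and no independent check of the clusters. Replicate 1 alone gave 49 loci of 3 or more peaks, and 32 of them (65.3%, interval 50.4 to 78.3%) held a first-1000 peak of replicate 2. That share was 30.8% for its 104 loci of 2 peaks and 8.57% for its 595 loci of 1 peak. Replicate 2 alone gave 32 such loci, of which 23 (71.9%, 53.3 to 86.3%) held a first-1000 peak of replicate 1, against 33.7% of 98 loci of 2 peaks and 8.41% of 678 loci of 1 peak. Loci of more peaks are longer, so single peaks were compared as well. For peaks 301 to 1000 of replicate 1, 17.0% of 100 in loci of 3 or more peaks overlapped a first-1000 peak of replicate 2 (10.2 to 25.8%), against 4.26% of 469 in loci of 1 peak (2.62 to 6.51%). For replicate 2 these shares were 19.3% of 57 (10.0 to 31.9%) and 3.92% of 510 (2.41 to 5.99%). Among the first 100 peaks the intervals overlapped: 73.9% and 55.6% from replicate 1, and 75.6% and 63.2% from replicate 2, for loci of 3 or more peaks and of 1 peak. Against loci of 1 peak, the intervals for peaks 301 to 1000 were thus apart in both replicates. For peaks 101 to 300 replicate 1 gave 20.0% (10.0 to 33.7%) in loci of 3 or more peaks and 16.2% (9.53 to 24.9%) in loci of 1 peak, with overlapping intervals. Replicate 2 gave 39.3% (21.5 to 59.4%) and 10.0% (5.43 to 16.5%) for that class, with intervals apart. Loci of 2 peaks had 5.34% in replicate 1 (2.18 to 10.7%) and 12.8% in replicate 2 (7.63 to 19.7%) for peaks 301 to 1000, and these intervals overlapped those of loci of 3 or more peaks. Neighbouring peaks are not independent, and no test of this difference was made.

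Many member peaks without a counterpart among the first 1000 still had one lower in the other list. Of 174 such peaks of replicate 1 in clusters, 105 overlapped a replicate 2 peak numbered over 1000 (60.3%, interval 52.7 to 67.7%), against 302 of 677 in the other loci (44.6%, 40.8 to 48.4%). Of 126 from replicate 2, 71 did (56.3%, 47.2 to 65.2%), against 311 of 720 (43.2%, 39.5 to 46.9%). Clusters hold stronger peaks, and within classes of peak number the difference was less even. For peaks 301 to 1000 of replicate 1 the shares were 56.5% in clusters (46.6 to 66.0%) and 40.9% in the other loci (36.7 to 45.1%), with intervals apart. For peaks 101 to 300 they were 62.7% and 56.3%, and for the first 100 they ran the other way, with 80.0% of 15 in clusters and 88.2% of 17 in the other loci, both with overlapping intervals. In replicate 2 the intervals overlapped in every class, with 54.8% in clusters and 42.6% in the other loci for peaks 301 to 1000. How many such overlaps lists of 30000 peaks give by position alone was not tested.

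Peaks numbered over 1000, which the rule did not use to build loci, were counted in and around clusters. Between the sites of clusters there were 0.436 such peaks per kb in replicate 1 and 0.440 in replicate 2, against 0.370 and 0.360 between the sites of the other loci. In the flanks, up to 10 kb on either side, replicate 1 had 0.382 weaker peaks per kb beside clusters and 0.317 beside the other loci. Replicate 2 had 0.385 beside clusters and 0.321 beside the other loci, and the whole genome span held 0.289 per kb in each list. The 126 loci with 1 peak of each replicate, which stand nearest to the rule, lay between these with 0.359 in replicate 1 and 0.338 in replicate 2. In the 2 kb nearest the edge, the density beside clusters was 0.470 in replicate 1 and 0.449 in replicate 2, against 0.321 and 0.326 beside the other loci. In the outermost bin, 8 to 10 kb away, replicate 1 had 0.285 beside clusters and 0.300 beside the other loci, and replicate 2 had 0.381 and 0.304, so that the order there differed between replicates.

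Chromosome position moved with these densities. Over the whole span of X there were 0.334 weaker peaks per kb in replicate 1 and 0.346 in replicate 2, in autosome centres 0.329 and 0.338, and in autosome arms 0.255 and 0.247. On X the flank density was 0.409 in replicate 1 and 0.416 in replicate 2 beside clusters, against 0.357 and 0.363 beside the other loci. In autosome centres it was 0.358 and 0.40 beside clusters, against 0.339 and 0.349. In autosome arms it was 0.391 and 0.320 beside the 27 clusters there, against 0.281 and 0.280. Against the pooled other loci, most of which held a single peak, the density was higher beside clusters in all 3 kinds of region in both replicates. Against the loci with 1 peak of each replicate it was not: in the autosome centres of replicate 1 clusters had 0.358 and those loci 0.374. In replicate 2 the values there were 0.40 beside clusters and 0.354 beside those loci.

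**Figure D5:**
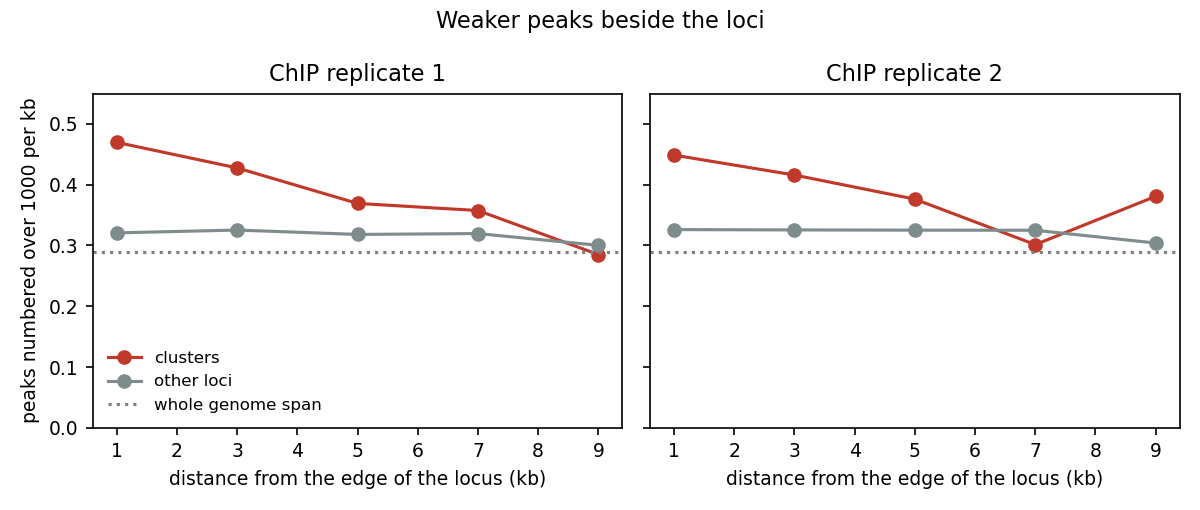
Peaks numbered over 1000 per kb by distance in kb from the edge of a locus, in bins of 2 kb, for clusters and other loci in each replicate; the dotted line is the density over the whole genome span (0.289). Values beside clusters are 0.470 and 0.449 in the nearest bin and, in the outermost, 0.285 in replicate 1 and 0.381 in replicate 2.

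Clusters were unevenly spread over the chromosomes. X held 32 of 107 (29.9%, interval 21.4 to 39.5%), against 262 of 1202 other loci (21.8%, 19.5 to 24.2%), and these intervals overlapped. X makes up 17.7% of the genome span. Per Mb there were 1.81 clusters on X, 1.23 on III, 1.03 on IV, 0.864 on I, 0.813 on V and 0.655 on II. Chromosome II had the fewest, 10 clusters, although its other loci were at 13.3 per Mb were next to those of X. Clusters made up 4.69% of the loci on II and 10.9% of those on X. On chromosome III 8 of 17 clusters held a combined peak, and on the other chromosomes the share ran from 61.5% on I to 70.6% on V.

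On the autosomes 48 of 75 clusters had their midpoint in the central 33.3% of the chromosome (64.0%, interval 52.1 to 74.8%), against 403 of 940 other loci (42.9%, 39.7 to 46.1%). On X, 16 of 32 clusters lay in the central part, against 37.8% of 262 other loci. Gene density, which also differs between centres and arms, was not measured.

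Some clusters lay close to each other. In windows of 1 Mb started at each cluster, and looked at after the positions were seen, the highest count was 7 clusters, reached by several overlapping windows on X around the cluster of 26 peaks. The first of these windows held 7 clusters with 53 member peaks between 5791786 and 6751819, and others with the same count held more peaks. That first window held 15 other loci, close to the X average of 14.8 per Mb. On chromosome I, 6 of the 13 clusters lay between 7017076 and 7714505. On chromosome IV, 5 lay between 6878938 and 7168656. The shortest distance between the midpoints of neighbouring clusters was 21290 bp, on X.

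The limits of the rule were not marked by breaks in the data. The longest gap inside a cluster was 9960 bp and the shortest beside one was 10323 bp, and 19 clusters contained a gap over 8000 bp. The score was 1.36 at both number 1000 and number 1001 of replicate 1, and 1.59 at both in replicate 2. The highest score was shared by 263 peaks of replicate 1 and by 429 of replicate 2, so the score does not order the leading peaks among themselves and their numbers are the authors'. Just outside the rule stood 126 loci with 1 peak of each replicate, and 16 loci with 3 or 4 peaks of 1 replicate, 10 from replicate 1 and 6 from replicate 2. Of these 16, 13 held a weaker peak of the other list, whose best numbers had a median of 6665. The whole genome span held 0.289 weaker peaks per kb in each list. How many loci of this length hold one by position alone was not tested. The strongest of the 16 was on IV at 11146154 to 11149880, with 4 replicate 1 peaks, a lowest number of 68 and 3 combined peaks. On X at 12889439 to 12899857, 3 replicate 2 peaks with a lowest number of 92 overlapped no combined peak.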

How the data were processed

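Peak lists of 2 anti-GFP ChIP replicates and 1 combined list were analysed; no values of the input samples were used. Per the file headers, all lists use WormBase WS220. Each replicate list was deposited with a score for each of 30000 peaks and names spp_via_IDR as its source; the scale of the score is not stated, and it was used only for ranking. The combined list names PeakSeq and was deposited with a q-value per peak, which is the authors' own. Aligner, versions, filters, control and any pooling are not stated in the labels or headers.

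Loci, sites and overlaps (1 bp or more) were computed with Python 3.11.15 (scipy 1.17.1, pandas 2.3.3, numpy 2.4.6), and figures were drawn with matplotlib 3.10.9. The locus code was tested on simulated data. A gap counts the bases between peaks. Chromosome spans run from the first to the last peak over the lists. No test was made, since the members were chosen on the same replicates. Named were the 10 clusters with the most peaks (ties by more combined peaks, then by the lower best number), the cluster with the lowest peak number per chromosome, the longest, the shortest, and loci beside a threshold; single loci outside clusters were chosen after their values were seen. Members and quantities were chosen with earlier results of these data known. Alternatives changed the peak number limit, gap, least count, counting of sites, repeated intervals, ranking column, replicates, overlap and combined list.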

Additional observations from a re-analysis of the deposited data

How the results depend on the processing

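No paired analysis was made: no result comes from a test, and the input samples had no values here. Of 52 alternative values, 31 stayed within 1.5 times the main count or within the interval of the main value, and 21 moved. The count of 107 clusters became 55 with the first 500 peaks, 317 with the first 2000, 71 with a gap of 5000 bp and 69 with 4 or more peaks. The share of peaks in clusters, 26.2%, became 37.0% (first 2000), 17.7% (5000 bp), 40.3% (20000 bp), and 20.5% with either 4 peaks or 3 sites required. The median length of 8744 bp became 7657 bp (first 500), 10826 bp (first 2000), 4596 bp (5000 bp), 19997 bp (20000 bp) and 11486 bp (3 sites). The share with a combined peak, 64.5%, became 89.1% (first 500), 36.3% (first 2000) and 76.8% (4 peaks). These follow from stricter or looser rules. With 1 replicate alone, and both no longer required, there were 32 clusters (without replicate 1) and 49 (without replicate 2), with 12.6% and 19.6% of its peaks, medians of 8369 and 8629 bp, combined shares of 71.9% and 67.3%, and X shares of 34.4% and 26.5%. The share on X, 29.9%, ran from 22.5% to 36.2% over all alternatives. Ranking by score and keeping the repeated interval changed none of the 5 values by more than rounding. Depth is unknown, so a peak missing from a replicate's first 1000 cannot be called unbound.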
